A study of Mus musculus with 3 samples.

Results

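Conventional CD4 T cells of the injured mouse kidney were described in 3 single-cell RNA-seq libraries. They were chosen by their own counts: at least 1 UMI (unique molecular identifier, the tag by which an RNA molecule is counted once) of *Cd3d*, *Cd3e* or *Cd3g*, at least 1 UMI of *Cd4*, and none of *Cd8a*, *Cd8b1* or *Foxp3*. The rule also asked for at least 200 genes, at most 50% mitochondrial UMIs, at most 2 UMIs of *Cd79a*, *C1qa* and *Lyz2* together, and at most 2 of *Lrp2*, *Slc34a1* and *Slc12a1* together. This gave 618 cells of the 48404 that passed the limits on UMIs, genes and mitochondrial UMIs, or 1.28%, out of 73281 barcodes. The kidneys came from a pair of *Aoah-/-* mice, replicates 2 and 3 (KO2 and KO3 below), and 1 wild-type mouse, replicate 3 (WT), all treated with folic acid (FA) and taken on day 14. The labels give an age of 6 to 8 weeks, and by the study's methods the mutation had been backcrossed to C57/BL6J, with littermates as WT controls. *Aoah* encodes acyloxyacyl hydrolase, an enzyme that inactivates bacterial endotoxin, and the mutation is germline, so the T cells and all other kidney cells carried it. No library of an untreated kidney was analysed. The floor on UMIs per cell was the lowest total of any barcode in KO3, since the other libraries had been deposited down to 500 UMIs. Where 3 values follow each other, they stand for KO2, KO3 and WT.

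CD4 T cells recognise peptides on MHC class II molecules and help other immune cells through cytokines and surface ligands such as CD40 ligand. Naive cells circulate through lymph nodes with CCR7 (*Ccr7*) on their surface, and depend on the transcription factors LEF1 and TCF7. Activated cells take on effector or memory states that are told apart by their master regulators, such as T-bet for Th1, GATA3 for Th2 and BCL6 for follicular helper (Tfh) cells.

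There were 185, 256 and 177 conventional CD4 T cells in the 3 libraries. Their UMIs summed to 736467, 954597 and 664332, with a median of 2984, 3149 and 3003 UMIs and 1195, 1304 and 1227 genes per cell. The median mitochondrial share was 6.5%, 6.03% and 7.83%, highest in WT. Of the 618 cells, 403 carried a single *Cd4* UMI, so most rest on 1 molecule of the gene that names them. The libraries shared 172, 171 and 176 barcodes pair by pair, and 0 barcodes were conventional CD4 T cells in 2 libraries.

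The label was checked with 15 T cell genes that the rule had not used. Their summed level was 3791, 4590.4 and 4385 CPM (UMIs per 1000000 UMIs of these cells). The most abundant was *Ptprc* (CD45), at 832, 1064 and 989 CPM. *Lck*, the kinase that starts T cell receptor signalling, was at 229, 289 and 299.5 CPM and *Bcl11b*, a T lineage factor, at 301, 308 and 274 CPM. The 5 B cell genes in the files summed to 2.72, 34.6 and 21.1 CPM, the 3 innate-like T cell genes in the files to 5.43, 1.05 and 3.01 CPM, and the 12 cytotoxic and natural killer (NK) genes to 363, 387 and 465 CPM. The most abundant of the 12 was *Ctsw*, a cathepsin of cytotoxic lymphocytes, at 125, 132 and 152 CPM, and the NK receptor gene *Ncr1* was at 0, 1.05 and 0 CPM.

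RNA of other kidney and blood cells was present and differed between libraries, although red cells had been lysed during preparation. The 5 erythroid genes summed to 10330.4, 3517 and 1626 CPM, highest in KO2, and *Hbb-bs*, the most abundant, had 61.2%, 69.9% and 63.7% of its UMIs in 1 cell. Cells with any erythroid UMI made up 36.2%, 48.4% and 85.9%, an order opposite to that of the level. The 7 endothelial and fibroblast genes summed to 59.7, 175 and 692 CPM, led by *Dcn* and highest in WT, and the 9 proximal tubule genes to 2623, 2311 and 2225 CPM, led by *Kap*. The 8 macrophage genes were closer, at 304, 311 and 278 CPM, led by *Apoe*. Cells with a UMI of *Il2ra* or *Ikzf2*, which regulatory T cells express, made up 30.8%, 32% and 25.4%. What these RNAs contribute to the results was not tested beyond the alternatives named below.

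At the limits of the rule, 26 of the cells lay within 200 UMIs above the floor and 10 otherwise eligible cells within 200 UMIs below it. There were 21 cells with exactly 2 UMIs of *Cd79a*, *C1qa* and *Lyz2*, and 2 were left out with 3. For *Lrp2*, *Slc34a1* and *Slc12a1*, 86 cells had exactly 2 UMIs and 27 were left out with 3. The T cell genes summed to 4616, 5415 and 5791 CPM in the cells just above the floor, and to 5505 (KO2) and 5514 CPM (WT) in those just below it.

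*Aoah* itself was almost unread in these cells, with 2 UMIs in KO2, 0 in KO3 and 1 in WT. In proximal tubule cells, which had at least 3 UMIs of *Lrp2* and *Slc34a1* and none of the *Cd3* genes, its level was 11, 9.64 and 24.3 CPM, and in all kept cells 6.78, 6.19 and 18.3 CPM. Its 3′ reads were thus fewer in the *Aoah-/-* libraries but not absent, and whether they lie in the deleted part is not given in the sources used here.

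Conventional CD4 T cells were a like share of all kept cells in the 3 libraries, 1.2% (1.03% to 1.38%), 1.3% (1.15% to 1.47%) and 1.33% (1.15% to 1.54%) (exact 95% binomial intervals, which overlapped). Of the cells with a *Cd3* UMI and the same limits on other genes, they were 11.9% (10.3% to 13.6%), 12.5% (11.1% to 14%) and 16.5% (14.4% to 18.9%). For each CD8 T cell there were 0.201, 0.24 and 0.466 conventional CD4 T cells. In the last pair of measures both *Aoah-/-* libraries lay below WT. Among cells of at least 3000 UMIs their share of the T cells was 14.4% (11.8% to 17.4%), 13.6% (11.5% to 15.9%) and 15.5% (12.7% to 18.8%), with overlapping intervals. At all depths there were 1560, 2047 and 1070 T cells, of which 420, 668 and 474 had no UMI of *Cd4*, *Cd8a* or *Cd8b1*. Such cells counted as neither conventional CD4 nor CD8 T cells, and what they would add was not tested. All these shares rest on the genes that chose the cells, and a genotype with 1 library allows no test. All intervals on cells and UMIs cover the error of counting alone.

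Most conventional CD4 T cells carried at least 1 of 4 helper-state genes and none of 3 naive genes. A naive-gene cell had a UMI of at least 1 of 3 naive genes, *Ccr7* and *Lef1* among them, and none of *S100a4*, *Cxcr6*, *Cd44* or *Itgb1*, and a helper-gene cell the reverse, after each cell had been thinned to the floor on UMIs. Naive-gene cells made up 10.3% (6.3% to 15.6%), 9.38% (6.1% to 13.6%) and 6.78% (3.55% to 11.5%), and helper-gene cells 61.6% (54.2% to 68.7%), 69.5% (63.5% to 75.1%) and 72.9% (65.7% to 79.3%). Cells with both kinds of gene were 10.3%, 11.3% and 8.47% and cells with neither 17.8%, 9.77% and 11.9%. The *Aoah-/-* mean was 3.04 percentage points above WT for naive-gene cells (SD 0.633, n = 2), and differed from WT by -7.31 points for helper-gene cells (SD 5.59, n = 2). The intervals of the 3 libraries overlapped in both classes. The helper-gene difference was -1.92 points with at least 2 *Cd3* UMIs, -2.67 in cells of at least 3000 UMIs and -10.3 in another random draw. The naive-gene difference was 9.64 points (14.1% against 4.44%, SD 3.4) in cells of at least 3000 UMIs. The other draw moved it to 5.55 points (SD 4.8). With *Igfbp4* and *Dapl1* added to the naive genes and with *S100a4* and *Cxcr6* alone as helper genes, helper-gene cells were 43.2%, 54.7% and 54.8% and naive-gene cells 16.8%, 13.3% and 11.9%.

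**Figure D1:**
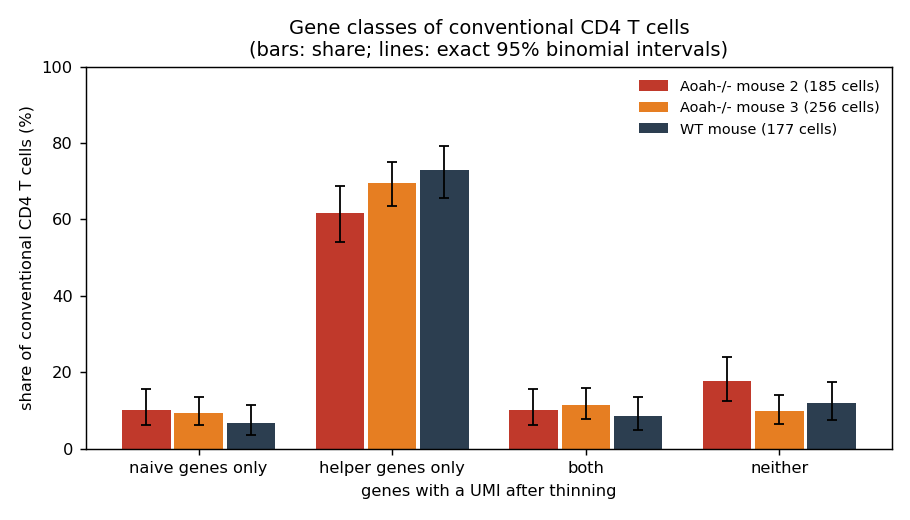
Share of conventional CD4 T cells (%, y axis) with UMIs of naive genes only, helper genes only, both or neither, per library, with exact 95% binomial intervals. Helper-gene cells are the largest class in each library, at 61.6%, 69.5% and 72.9%.

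*S100a4*, a calcium-binding protein of activated and memory T cells, was read in 48.1%, 54.7% and 54.2% of the thinned cells. In proximal tubule cells thinned alike, which served as background and had median depths of 8001, 4181 and 9030 UMIs before thinning, the share was 3.53%, 6.42% and 1.52%. *Cxcr6*, a chemokine receptor of tissue-resident T cells, was read in 17.8% (12.6% to 24.1%), 27% (21.6% to 32.8%) and 32.8% (25.9% to 40.2%), against 0.0462%, 0.709% and 0.0417% in tubule cells, with KO2 lowest. *Itgb1* was less particular to the T cells, with 44.3%, 44.1% and 46.9% against 17.4%, 18.1% and 12.7%.

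Of the naive genes, *Lef1* was read in 14.1% (9.39% to 19.9%), 14.5% (10.4% to 19.4%) and 8.47% (4.82% to 13.6%) of the thinned cells and *Ccr7* in 9.19% (5.44% to 14.3%), 7.81% (4.84% to 11.8%) and 7.91% (4.39% to 12.9%), against at most 1.09% in tubule cells. Cells with *Ccr7* had *Lef1* in 41.2%, 45% and 21.4% of cases and the other cells in 11.3%, 11.9% and 7.36%. *S100a4* went the other way, in 23.5%, 25% and 21.4% of the cells with *Ccr7* and 50.6%, 57.2% and 57.1% of the rest. The pair of naive genes thus tended to be read in the same cells, and *S100a4* in others.

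Naive genes were described by their levels, and 1 of them was called between genotypes. *Tcf7*, the partner of *Lef1*, was at 117, 106 and 82.8 CPM and *Lef1* at 96.4, 99.5 and 69.2 CPM, both lowest in WT. *Klf2*, which drives receptors for exit from tissue, was at 543, 499 and 736 CPM and its target *S1pr1* at 107, 72.3 and 122 CPM, both highest in WT. *Il7r*, the survival receptor of resting T cells, was at 411 (366 to 460.5), 388 (349 to 429) and 423 (375 to 475) CPM (95% Poisson intervals, which overlapped). A gene was called higher or lower where KO2 and KO3 both differed from WT by at least 1.5-fold in the same direction, on CPM + 10. Genes entered at a level of 50 CPM or more in either genotype (KO2 and KO3 averaged), also through the higher genotype alone, so list counts are descriptions. Over all 2947 such genes 1.19% were called higher and 2.1% lower. Of 10 naive genes 0 were called higher and 1 lower, *Igfbp4*, a binding protein of insulin-like growth factor, at 50.2, 45 and 94.8 CPM. It entered through WT alone. A single WT cell held 47.6% of its UMIs, and its log2 ratio of -0.86 turned to 0.23 in cells with 0 UMIs of the other cells' genes in the rule. That setting left 68, 98 and 86 cells.

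*S100a4* was at 847, 867 and 896 CPM and *Icos*, a costimulatory receptor of activated helper cells, at 492, 461 and 513 CPM. *Cxcr6* was at 110.0, 220.0 and 253 CPM and *Rgs1*, a brake on chemokine signals, at 568, 876 and 930.3 CPM, with KO2 lowest and KO3 near WT in both. Of the 18 genes of this list at 50 CPM or more, 0 were called in either direction, and their median log2 ratio of *Aoah-/-* to WT was -0.07, against -0.03 over all genes.

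Of 11 Th1 genes at 50 CPM or more, 6 were below WT in both *Aoah-/-* libraries and 2 above it in both. Over all 2947 genes at that level, 1153 were below WT in both and 895 above it in both. *Ifng*, the Th1 cytokine (GRCm38, chr10:118441046-118445892, plus strand), was at 189 (159 to 223), 401 (362 to 443) and 461 (410.4 to 515) CPM, where the intervals of KO3 and WT overlapped and the gene was not called. *Tbx21*, which encodes T-bet, was at 39.4, 52.4 and 40.6 CPM and *Ccl5*, a chemokine of effector T cells, at 1028, 1062 and 1171 CPM. *Nkg7*, a granule protein of Th1 and cytotoxic cells (GRCm38, chr7:43437073-43438249, plus strand), was at 270.2 (234 to 310.5), 391 (352 to 432) and 611 (553 to 674) CPM, with UMIs in 73, 103 and 95 cells. Its intervals did not overlap, and it was the 1 gene called, as lower, of these 11. Its log2 ratio of -0.87 was -0.80 without cells with *Il2ra* or *Ikzf2*, -0.75 without cells with 7 genes of other cells and -0.54 without cells with an erythroid UMI, and each of these settings ended the call. The last pair of settings was chosen after the data were seen, and the erythroid one left 25 WT cells. In CD8 T cells *Nkg7* was at 2070.3, 2007 and 2005 CPM. Cells with *Ifng* had *Nkg7* more often than the rest, 50%, 58% and 71.2% against 23.2%, 25.1% and 36%.

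Of the Th2 cytokines, *Il4*, *Il5* and *Il13* were each at 4.52 CPM or less in every library. *Gata3* was at 92.3, 160.3 and 131 CPM, and *Areg*, a tissue repair ligand of the epidermal growth factor family, at 72, 219 and 122 CPM, with WT between the *Aoah-/-* libraries in both. *Il17a* had no UMI in KO2 and KO3 and was at 36.1 CPM in WT, where 3 cells carried it and 1 held 70.8% of the UMIs. *Tmem176a* and *Tmem176b*, membrane proteins of the Th17 list, were called lower, but without cells with *Il2ra* or *Ikzf2* their log2 ratios of -0.95 and -1.20 were -0.12 and -0.15, which ended both calls. Without cells with an erythroid UMI, a setting chosen after the data were seen that left 25 WT cells, they turned to 1.11 and 0.15. *Tmem176b* was at 118 (94.6 to 146), 91.1 (73 to 112) and 253 (216 to 294) CPM, with 29.8% of the WT UMIs in 1 cell, and proximal tubule cells carried it at 634, 766 and 759.5 CPM.

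Ligands of T cell help were not called in either direction. *Cd40lg*, the ligand that activates B cells and macrophages, was at 119 (95.8 to 147), 154 (130.1 to 181) and 196 (163 to 232) CPM. *Tnfsf11* (RANKL) was at 61.1, 110.0 and 125 CPM, *Ltb*, a lymphotoxin subunit, at 607, 762 and 729 CPM, and *Il2*, the T cell growth factor, at 19, 23 and 37.6 CPM. *Cd40lg*, *Tnfsf11* and *Il2* had lower values in KO2 and KO3 than in WT, in KO3 by less than 1.5-fold on CPM + 10. Of the Tfh genes, *Maf* was at 348, 420.1 and 351 CPM and *Sh2d1a*, an adaptor of contacts with B cells, at 84.2, 133 and 179 CPM, while *Cxcr5* and *Il21* were at 4.52 CPM or less and *Ascl2* had no UMI. None of 6 Tfh and 6 helper ligand genes at 50 CPM or more was called.

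**Figure D2:**
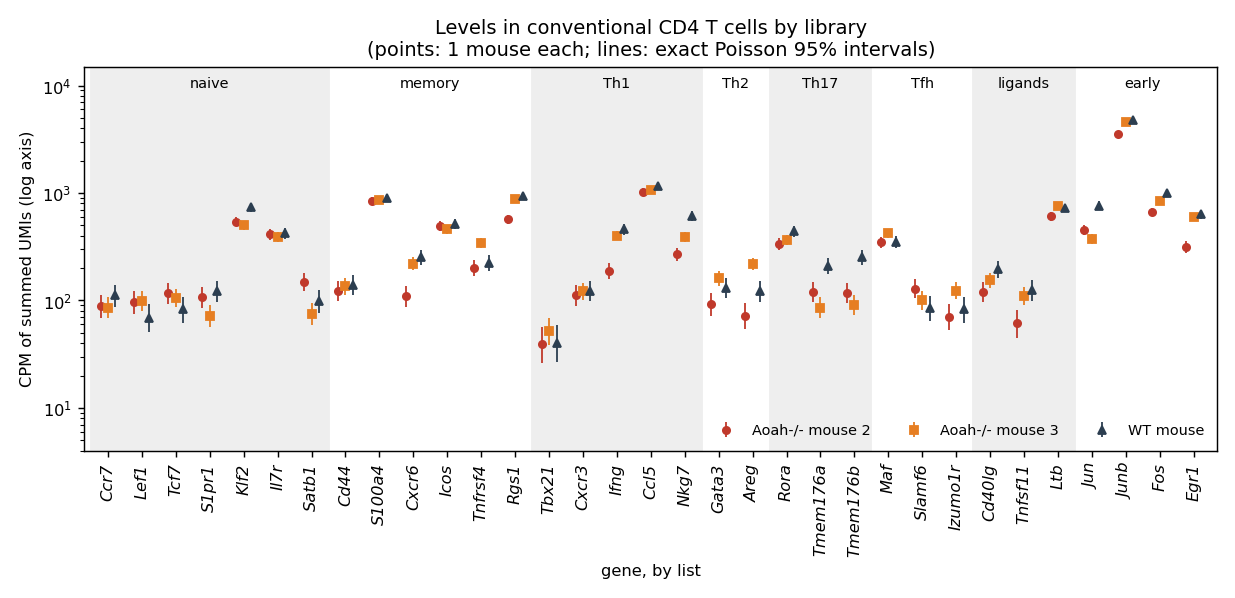
Levels (CPM of summed UMIs, log axis) of genes of 8 lists in the conventional CD4 T cells of each library, with exact Poisson 95% intervals. *Nkg7*, *Jun*, *Tmem176a* and *Tmem176b* are lower in KO2 and KO3 than in WT.

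Immediate early genes, which respond to activation and to tissue dissociation, were mostly below WT. Of 16 genes 12 were lower in KO2 and in KO3 than in WT and 0 were higher in both, with a median log2 ratio of -0.36. Over all 2947 genes these counts were 1153 and 895. *Jun*, a subunit of the AP-1 factor, was at 452 (405 to 503), 376 (338 to 417) and 765 (699.6 to 834) CPM and was the 1 gene of the list called lower, with 20.1% of the WT UMIs in 1 cell. Its log2 ratio of -0.87 was -0.71 with 0 UMIs of other cells and -0.047 without cells with an erythroid UMI, and both settings ended the call. *Junb* was at 3513, 4560.0 and 4793 CPM, *Fos* at 663, 836 and 1010.0 CPM and *Klf6* at 638, 601 and 930.3 CPM. In CD8 T cells *Jun* was at 371, 458 and 503 CPM. What dissociation contributes was not tested.

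**Figure D3:**
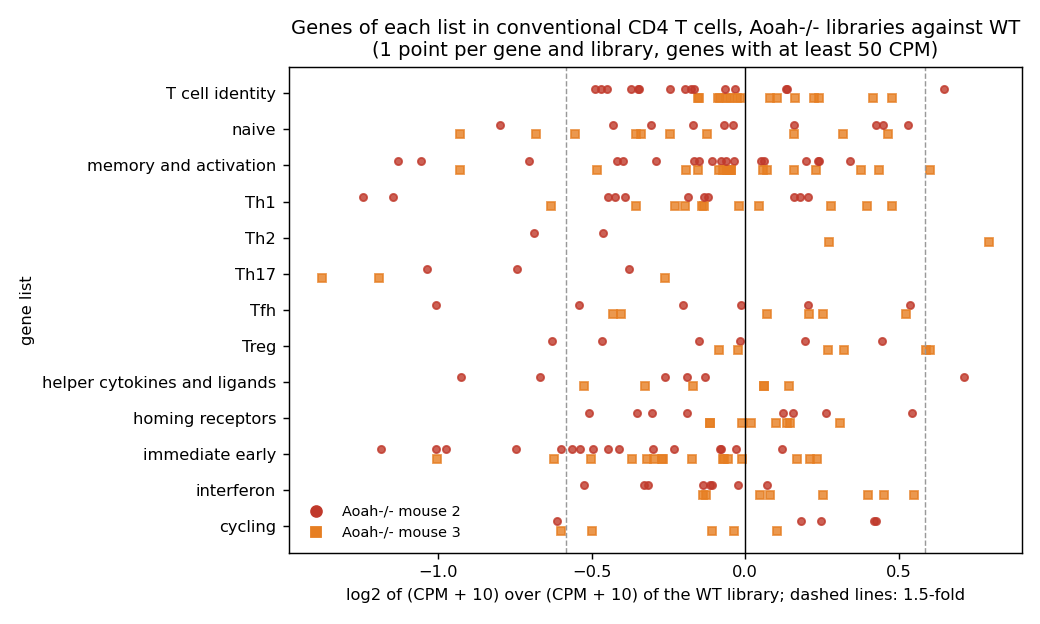
Log2 ratio of CPM + 10 in KO2 and in KO3 to WT (x axis) for genes of 13 lists (y axis) at 50 CPM or more, 1 point per gene and library. Points of the immediate early list lie mostly below 0 (median -0.36), and dashed lines mark 1.5-fold.

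In all, 35 genes were called higher and 62 lower. None of the 6 Treg, 4 inhibitory receptor, 4 MHC class II, 8 homing receptor, 8 interferon and 5 cycling genes at 50 CPM or more was among them. The cytotoxic list added *Gzma*, a granzyme at 29.9, 24.1 and 78.3 CPM, called lower, whose UMIs in KO2 all lay in 1 cell. It entered through WT alone. Its log2 ratio of -1.26 was -1.07 without cells with 7 genes of other cells and -2.07 without the top cell of each gene. Both settings ended the call. In the latter the fall was larger, and the call ended because the gene no longer reached the entry level of 50 CPM. Of other cells' lists, 3 of 4 erythroid genes, 2 of 2 granulocyte genes (*S100a9*, *Il1b*), 2 of 8 proximal tubule genes (*Gpx3*, *Gatm*) and 2 of 5 other tubule genes (*Umod*, *Calb1*) were called higher, and both endothelial and fibroblast genes (*Dcn*, *Col3a1*) lower. With at most 20% mitochondrial UMIs, *Umod* and *Calb1* lost their calls, with log2 ratios of 0.0089 and 0.93 in place of 1.00 and 2.09. *S100a9* lost its call without *Aoah-/-* replicate 3, at 0.76 in place of 2.50. *Il1b* did so with 0 UMIs of other cells, at 0.15 in place of 1.26, and *Gatm* in the same setting, at 0.53 in place of 0.74. *Gpx3* did so in cells of at least 3000 UMIs, at 0.64 in place of 0.89. *Dcn* and *Col3a1* lost theirs with 0 UMIs of other cells, where *Col3a1* turned to 0.25. The 3 erythroid genes lost their calls with at least 2 *Cd3* UMIs, but their log2 ratios stayed of like size. They were 1.56 (*Hba-a2*), 1.73 (*Hbb-bs*) and 3.35 (*Hbb-bt*) in place of 1.93, 2.18 and 3.48. *Gpx3*, a secreted peroxidase, was at 957, 776 and 464 CPM here and at 10552, 9913 and 7427 CPM in proximal tubule cells.

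Several of the largest differences had most of their WT UMIs in 1 cell. *Dcn*, a matrix proteoglycan of fibroblasts, had the largest fall, at 4.07, 0 and 488 CPM, and 86.1% of its WT UMIs lay in 1 of 6 cells. *C3*, the central complement protein, had 65.1% and *Clu*, a secreted chaperone, 94.6% in 1 WT cell. *Ccl1*, a chemokine of activated T cells, was at 9.5, 29.3 and 333 CPM, with 85.1% in 1 WT cell. *Clu* turned to a log2 ratio of 1.64 in cells with 0 UMIs of the other cells' genes, and *C3* and *Ccl1* to 0.62 and 0.94 without cells with an erythroid UMI. Among the 10 largest rises, *Hbb-bt* and *Ly6d* had 65.9% and 65.9% of their KO2 UMIs in 1 cell. With the cell richest in each gene left out of every library, a setting chosen after the data were seen, 36 genes were called higher and 26 lower, of which 19 and 25 were called with all cells. *C3*, *Dcn* and *Igfbp6* were still called lower there, at log2 ratios of -3.72, -2.96 and -2.78, while *Clu* and *Ccl1* were at -0.57 and -1.79 and lost their calls. *Ccl1* lost its call because it no longer reached the entry level of 50 CPM. With 0 UMIs of other cells no call was left for *C3* (log2 ratio -0.26), *Dcn* (-0.45) or *Igfbp6* (log2 ratio 0). Leaving out an *Aoah-/-* replicate was no check on the number of calls, because the rule then asks for a 1.5-fold difference in 1 library only.

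*Gm8730*, annotated as a processed pseudogene (GRCm38, chr8:102864845-102865798, minus strand), was instead spread over many cells. It was at 243 (209 to 281), 222 (193 to 254) and 16.6 (8.27 to 29.6) CPM, with UMIs in 88, 120 and 10 cells, a log2 ratio of 3.19. The order was alike in CD8 T cells, at 236, 203 and 41.3 CPM, and in proximal tubule cells, at 64.4, 59.4 and 11.1 CPM. Reads of a pseudogene can be shared with its parent gene, so the level is uncertain.

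Within the same mice, conventional CD4 T cells were then set against CD8 T cells (920, 1067 and 380 cells with a *Cd8a* or *Cd8b1* UMI and none of *Cd4* or *Foxp3*). UMIs were summed per mouse and cell set and tested with edgeR's quasi-likelihood test and Benjamini-Hochberg adjustment, with the mouse as a block (n = 3 mice). The 13 genes that chose the cells were left out. The filter on low counts asked for 8.48 CPM in at least 3 of the 6 sums, so a gene under that floor in 1 kind of cell could enter through the other kind, and counts over a list are given as descriptions. Of 8102 genes, 264 (3.26%) were higher in conventional CD4 T cells and 205 (2.53%) lower at an adjusted p below 0.05, and the median log2 fold over all genes was 0.00. Without *Aoah-/-* replicate 2 the counts were 171 and 134, and without *Aoah-/-* replicate 3 they were 98 and 76.

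*Cd40lg*, *Tnfrsf4*, *Tnfsf11* and *Icos*, ligands and receptors of T cell help, were called higher than in CD8 T cells. *Icos* alone of them reached the floor in every CD8 sum, and the other 3 entered the test through the conventional CD4 T cells. *Cd40lg* (GRCm38, chrX:57212143-57224042, plus strand) was at 119, 154 and 196 against 3.06, 2.65 and 10.7 CPM (log2 fold 5.02, SE 0.27, adjusted p = 2.8e-05). *Tnfrsf4* (OX40), a costimulatory receptor, was at 201, 346 and 224 against 7.83, 4.5 and 13.5 CPM (log2 fold 5.04, SE 0.31, adjusted p = 5.8e-05). The sets did not overlap in either gene. *Tnfsf11* was at 61.1, 110.0 and 125 against 3.74, 9.52 and 11.4 CPM (log2 fold 3.55, SE 0.18) and *Icos* at 492, 461 and 513 against 115, 123 and 203 CPM (log2 fold 1.73, SE 0.14), again without overlap. Of 10 helper cytokine and ligand genes 3 were higher (*Cd40lg*, *Tnfsf11*, *Lta*) and 0 lower, with a median log2 fold of 0.51, but all 3 missed the floor in at least 1 CD8 sum and entered through the conventional CD4 T cells, and *Lta* lost its call with any 1 mouse left out (adjusted p = 0.124, 0.127 and 0.199). By detection, *Icos* was read in 53.5%, 47.3% and 47.5% of thinned conventional CD4 T cells, 14.7%, 14.9% and 20.5% of CD8 T cells and 0.108%, 0.583% and 0.0556% of tubule cells.

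Of 9 Tfh genes 5 were higher (*Izumo1r*, *Tnfsf8*, *Maf*, *Tox2*, *Slamf6*) and 0 lower, of which *Maf* and *Slamf6* alone reached the floor in every CD8 sum, with *Tox2* not called without *Aoah-/-* replicate 2 or 3 (adjusted p = 0.069 and 0.098). *Maf*, a factor of IL-10 and Tfh programmes (GRCm38, chr8:115682942-115707794, minus strand), was at 348, 420.1 and 351 against 52.7, 67.7 and 56.3 CPM (log2 fold 2.61, SE 0.09, adjusted p = 3.7e-06). Of 4 Th2 genes 3 were higher, *Gata3*, *Areg* and *Ccr4*, the last under the floor in at least 1 CD8 sum. *Areg* was at 72, 219 and 122 against 43.5, 14 and 13.5 CPM (log2 fold 2.52, SE 0.51, adjusted p = 0.024), and it lost its call without *Aoah-/-* replicate 3 (adjusted p = 0.198) and without WT replicate 3 (adjusted p = 0.0633). *Gata3* lost its call without *Aoah-/-* replicate 3 (adjusted p = 0.153). *Rora*, the 1 Th17 gene of 4 called, was at 338, 368 and 443 against 107, 117 and 172 CPM (log2 fold 1.51, SE 0.10).

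Of 20 memory and activation genes 7 were higher, among them *S100a4*, at 847, 867 and 896 against 305, 422 and 515 CPM (log2 fold 1.05, SE 0.12), and *Cd44*, a hyaluronan receptor, at 124, 135 and 140.0 against 65, 65.9 and 68.4 CPM (log2 fold 0.94, SE 0.11). *Cd69*, a retention receptor, was lower, but not with any 1 mouse left out (adjusted p = 0.0828, 0.228 and 0.0711), and *Itgb1*, which was higher, behaved alike (adjusted p = 0.185, 0.271 and 0.145). Of 15 naive genes *Klf2*, *Il7r* and *S1pr1* were higher and *Txk* lower, where *Klf2* and *Txk* lost their calls without *Aoah-/-* replicate 3 (adjusted p = 0.132 and 0.0767). Of 16 immediate early genes 8 were higher and 0 lower, among them *Junb*, at 3513, 4560.0 and 4793 against 2164, 2641 and 2799 CPM (log2 fold 0.70, SE 0.05). Neither the erythroid nor the proximal tubule list had a called gene here.

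Of 9 cytotoxic genes 8 were lower than in CD8 T cells and 0 higher, and 6 of the 8 reached the floor in conventional CD4 T cells too. *Gzma* was at 29.9, 24.1 and 78.3 against 732, 867 and 648 CPM (log2 fold -4.23, SE 0.31), and *Klrd1*, a subunit of natural killer receptors, at 16.3, 22 and 19.6 against 284, 258 and 191 CPM (log2 fold -3.70, SE 0.16). *Ccl5* (GRCm38, chr11:83525778-83530518, minus strand) was at 1028, 1062 and 1171 against 12041, 9992 and 9413 CPM (log2 fold -3.32, SE 0.09, adjusted p = 9.8e-07). The Th1 list was mixed, with 8 of 17 lower, among them *Nkg7*, *Tbx21*, *Eomes* and *Runx3*, and 2 higher, *Cxcr3* and *Il18r1*. Of the 8 lower genes 7 reached the floor in conventional CD4 T cells too, while *Eomes* entered through the CD8 T cells. *Cxcr3* lost its call with any 1 mouse left out (adjusted p = 0.153, 0.208 and 0.134) and *Tbx21* without *Aoah-/-* replicate 3 (adjusted p = 0.052). *Ifng* was at 189, 401 and 461 against 308, 371 and 379.7 CPM and was not called.

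Of 11 Treg genes 8 were higher than in CD8 T cells (5 of them at the floor in CD8 T cells too) and *Itgae* was lower, though not without *Aoah-/-* replicate 3 (adjusted p = 0.208). *Ikzf2* (Helios) was at 193, 257 and 167 against 34.7, 55 and 67 CPM (log2 fold 1.98, SE 0.20) and *Ctla4*, an inhibitory receptor, at 232, 296 and 235 against 50.7, 52.6 and 63.4 CPM (log2 fold 2.16, SE 0.13). A cell without a *Foxp3* UMI at this depth can still express *Foxp3*, and what such cells contribute was not tested.

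Against Foxp3 T cells (49, 92 and 64 cells with a *Foxp3* UMI and none of *Cd8a* or *Cd8b1*) the same conventional CD4 T cells were tested in the same way, so this comparison and the last share them. Of 5853 genes, 72 (1.23%) were higher in conventional CD4 T cells and 83 (1.42%) lower. Without WT replicate 3, edgeR called 0 genes, with 673 at an unadjusted p below 0.05. Without *Aoah-/-* replicate 2 it called 21 and 32. *Umod*, of the other tubule list, was called higher, at 148, 156 and 70.7 against 49.4, 72.4 and 21.6 CPM (log2 fold 1.47, SE 0.23). *Spp1* was called higher too, at 326, 792 and 1611 against 144, 200 and 57.6 CPM (log2 fold 2.62, SE 0.50). What RNA of other cells contributes here was not tested.

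The floor of the filter was 18.8 CPM here. Of 9 helper cytokine and ligand genes 2 were higher than in Foxp3 T cells (*Cd40lg*, *Il2*) and 0 lower, and of 15 Th1 genes 2 were higher (*Ifng*, *Ly6c2*) and 1 lower (*Hopx*). These 4 higher genes, and *Cxcr6*, missed the floor in at least 1 Foxp3 sum and entered through the conventional CD4 T cells, so these counts are not evidence about the lists. *Ifng* was at 189, 401 and 461 against 31.4, 12.5 and 36 CPM (log2 fold 3.89, SE 0.33, adjusted p = 0.0009), *Cd40lg* at 119, 154 and 196 against 13.5, 17.5 and 28.8 CPM (log2 fold 3.05, SE 0.25, adjusted p = 0.00086), and *Cxcr6* at 110.0, 220.0 and 253 against 4.49, 54.9 and 25.2 CPM (log2 fold 2.80, SE 0.34). The sets did not overlap in these genes. *Il2* had 61 UMIs in conventional CD4 and 2 in Foxp3 T cells, a ratio of CPM of 11.7 (95% counting interval 3.1 to 98.5). Of 14 naive genes 4 were higher, *Dapl1*, *Tcf7*, *Satb1* and *Klf2*, and 0 lower, of which *Klf2* alone reached the floor in every Foxp3 sum. *Tcf7* was at 117, 106 and 82.8 against 18, 15 and 14.4 CPM (log2 fold 2.77, SE 0.27). *Dapl1*, a gene of resting T cells (GRCm38, chr2:59484653-59505020, plus strand), had 82 UMIs against 0, at least 10.5-fold higher with 3 UMIs over all Foxp3 T cells as the floor.

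Of 11 Treg genes 10 were lower than in Foxp3 T cells, 6 of them at the floor in conventional CD4 T cells too. *Ikzf2* was at 193, 257 and 167 against 1145, 1038 and 1007 CPM (log2 fold -2.29, SE 0.16), and *Il2ra*, the high-affinity chain of the IL-2 receptor, at 33.9, 43 and 30.1 against 247, 219.6 and 151 CPM (log2 fold -2.42, SE 0.20). *Tnfrsf4* was at 201, 346 and 224 against 1518, 1403 and 1097 CPM (log2 fold -2.31, SE 0.17, adjusted p = 0.00064), so conventional CD4 T cells lay between CD8 and Foxp3 T cells. *Areg* was at 72, 219 and 122 against 786, 796 and 1079 CPM (log2 fold -2.68, SE 0.28), and *Il1rl1*, the IL-33 receptor, which entered through the Foxp3 T cells, was lower as well. The sets did not overlap in these genes.

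**Figure D4:**
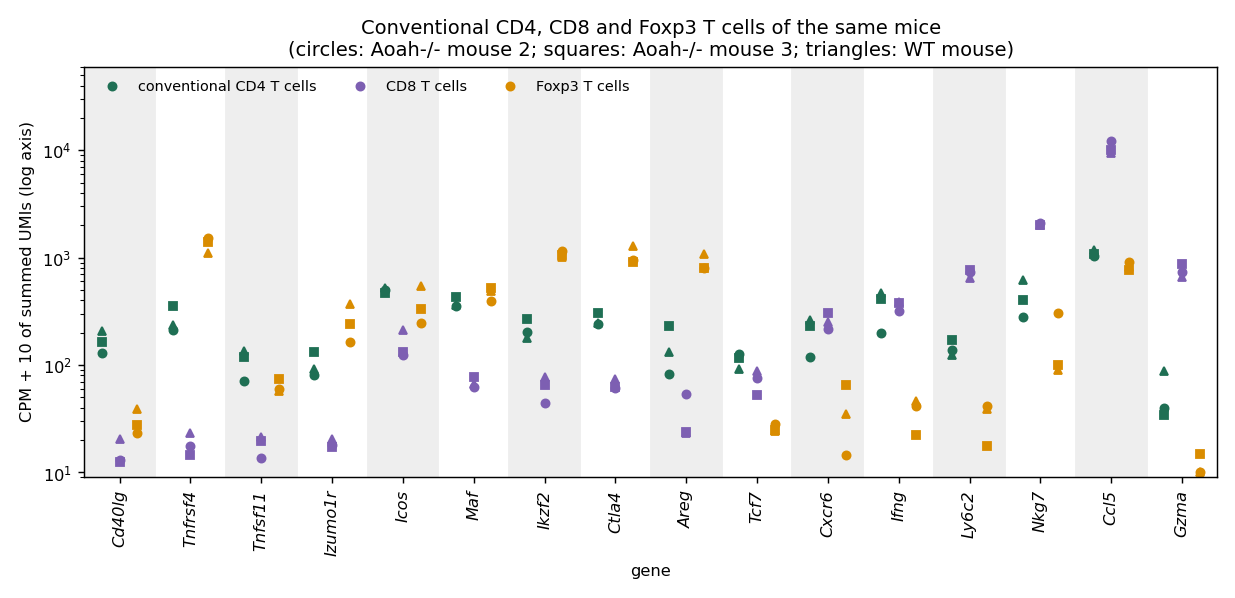
Levels (CPM + 10 of summed UMIs, log axis) of 16 genes in conventional CD4, CD8 and Foxp3 T cells of the same mice, 1 point per mouse and set. *Cd40lg* is highest in conventional CD4 T cells, *Ikzf2*, *Ctla4* and *Areg* in Foxp3 T cells, and *Nkg7*, *Ccl5* and *Gzma* in CD8 T cells.

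Among the conventional CD4 T cells, helper-gene cells were compared with naive-gene cells of the same mice, with classes taken from unthinned cells. There were 112, 175 and 129 helper-gene and 25, 17 and 9 naive-gene cells, and the latter held 92123, 60548 and 26816 UMIs. Median depths were 2963, 3001 and 2914 UMIs in helper-gene and 3153, 3445 and 2786 UMIs in naive-gene cells. The 7 class genes and the 13 genes of the rule were left out of the test. Of 3523 genes, 116 (3.29%) were higher in helper-gene cells and 146 (4.14%) lower by edgeR's quasi-likelihood test, and the median log2 fold over all genes was 0.07. Without *Aoah-/-* replicate 2 the counts were 87 and 91, and without *Aoah-/-* replicate 3 they were 83 and 83.

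The 12 naive genes tested were lower in helper-gene cells, among them *Il7r*, *Klf2*, *Tcf7*, *Foxp1*, *Txk* and *S1pr1*, which reached the floor of the filter (37.2 CPM) in every sum of the helper-gene cells. The other 6, *Dapl1*, *Actn1*, *Satb1*, *Nsg2*, *Bach2* and *Igfbp4*, missed it in at least 1 and entered through the naive-gene cells, so the count is not evidence about the list. *Satb1*, a chromatin organiser of T cell development (GRCm38, chr17:51736187-51833290, minus strand), was at 69.5, 25.5 and 75 against 586, 495 and 485 CPM (log2 fold -3.55, SE 0.32, adjusted p = 3.2e-07). *Dapl1* was at 2.24, 4.77 and 2.14 against 217, 231 and 261 CPM (log2 fold -6.24, SE 0.55, adjusted p = 3.2e-07), and *Actn1*, an actin crosslinker, at 6.73, 12.7 and 23.6 against 141, 215 and 261 CPM (log2 fold -4.10, SE 0.49). The classes did not overlap in these genes. *Il7r* was at 334, 312 and 347 against 478, 809 and 1156 CPM (log2 fold -1.42, SE 0.25), *Tcf7* at 101, 63.6 and 70.7 against 163, 297 and 224 CPM (log2 fold -1.74, SE 0.36), and *Klf2* at 444, 391 and 624 against 749, 776 and 1231 CPM (log2 fold -1.13, SE 0.22). *Bach2* and *Foxp1*, which restrain effector programmes, and *Txk*, a kinase of T cell receptor signalling, were lower as well. Without *Aoah-/-* replicate 3, *Tcf7* and *Klf2* lost their calls (adjusted p = 0.156 and 0.0501), as did *S1pr1* (adjusted p = 0.136), and *Bach2* did so without *Aoah-/-* replicate 2 (adjusted p = 0.304).

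Promoters were searched for CTTTGA, the core of the motif of LEF1 and TCF7, on both strands of the 250 bases before the start (RefSeq, GRCm38.p6). Of 24 promoters of 12 matched naive genes 4 held it (16.7%), in *Lef1*, *Bach2*, *Foxp1* and *Txk*, against 3 of 16 promoters (18.8%) of 15 matched memory and activation genes and 13.8% of all 32851 promoters. The 3 promoters of tested genes that were lower in helper-gene cells and held it are shown 5′ to 3′ on the strand of the gene. Capitals mark the match, which reads TCAAAG because it lies on the opposite strand. A match describes letters and not a bound site.
Bach2 (chr4:32417185-32417434, plus strand): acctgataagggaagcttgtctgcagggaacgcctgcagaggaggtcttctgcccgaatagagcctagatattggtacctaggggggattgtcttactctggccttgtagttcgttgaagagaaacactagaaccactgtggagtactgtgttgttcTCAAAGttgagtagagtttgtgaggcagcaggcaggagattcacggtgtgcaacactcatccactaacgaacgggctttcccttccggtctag
Foxp1 (chr6:99266516-99266765, minus strand): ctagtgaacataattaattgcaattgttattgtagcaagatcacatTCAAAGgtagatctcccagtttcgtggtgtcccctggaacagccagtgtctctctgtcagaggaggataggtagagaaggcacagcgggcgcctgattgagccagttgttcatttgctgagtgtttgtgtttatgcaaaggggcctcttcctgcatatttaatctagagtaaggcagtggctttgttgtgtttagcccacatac
Txk (chr5:72752778-72753027, minus strand): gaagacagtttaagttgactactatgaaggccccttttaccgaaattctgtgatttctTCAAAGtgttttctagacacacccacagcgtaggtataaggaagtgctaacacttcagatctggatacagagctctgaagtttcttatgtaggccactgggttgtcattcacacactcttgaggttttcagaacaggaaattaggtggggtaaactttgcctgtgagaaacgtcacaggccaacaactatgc

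Of the Th1 and memory genes, *Ifng* was at 215, 426 and 587 CPM in helper-gene cells and had no UMI in naive-gene cells, so it was at least 24.8-fold higher with 3 UMIs over all naive-gene cells as the floor. *Ccl5* was at 1406, 1292 and 1466 against 32.6, 99.1 and 0 CPM (log2 fold 4.51, SE 0.40, adjusted p = 3.2e-07), and *Nkg7* at 357, 434 and 755 against 43.4, 0 and 0 CPM (log2 fold 4.09, SE 0.52). The classes did not overlap in these genes. *Id2*, a regulator of effector and resident T cells, was at 399, 633 and 455 against 10.9, 66.1 and 0 CPM (log2 fold 3.87, SE 0.45), and *S100a6*, a calcium-binding protein, at 1285, 932 and 873 against 43.4, 149 and 74.6 CPM (log2 fold 3.37, SE 0.36). Of 12 Th1 genes 8 were higher and 0 lower, and all 8 entered through the helper-gene cells. Of 14 memory and activation genes 11 were higher and 0 lower, and 5 of them, *Vim*, *S100a6*, *S100a10*, *S100a11* and *Lgals1*, reached the floor of the filter in every sum of the naive-gene cells. *Vim* and *Lgals1* only just did so in WT, at 37.29 CPM against a floor of 37.18 CPM. The counts of both lists are not evidence about the lists as wholes.

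*Areg* and *Xcl1*, a chemokine, also had no UMI in naive-gene cells and were at least 9.55-fold and 10.6-fold higher. *Cd40lg* was at 141, 197 and 232 against 21.7, 16.5 and 74.6 CPM (log2 fold 2.36, SE 0.51) and lost its call without *Aoah-/-* replicate 3 (adjusted p = 0.0605). *Maf* was at 388, 473 and 379 against 76, 33 and 37.3 CPM (log2 fold 2.65, SE 0.38). Both genes, like *Id2*, entered through the helper-gene cells. Of 16 immediate early genes 10 were higher and 0 lower, 8 of them at the floor in naive-gene cells too, among them *Egr1*, at 415, 792 and 577 against 43.4, 66.1 and 149 CPM (log2 fold 2.77, SE 0.35). All 4 erythroid genes tested were higher too, though *Hbb-bs* alone reached the floor of the filter in naive-gene cells. It was at 4739.5, 2896 and 924 against 43.4, 49.5 and 373 CPM (log2 fold 4.52, SE 0.53), while *Hbb-bt* lost its call without *Aoah-/-* replicate 2 (adjusted p = 0.0503). In each library most *Hbb-bs* UMIs of the conventional CD4 T cells lay in 1 cell, as given above. The helper-gene levels of *Hbb-bs* thus rest largely on single cells, and no test without them was run. What cells rich in erythroid RNA contribute was not tested. Of 9 proximal tubule genes 0 were called.

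**Figure D5:**
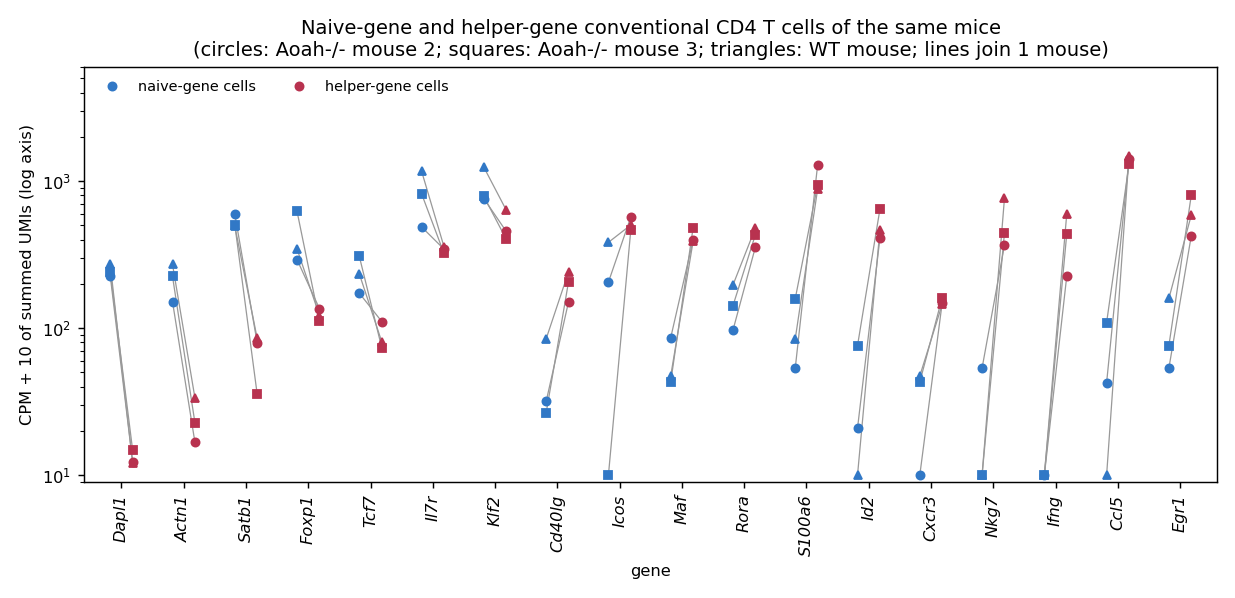
Levels (CPM + 10 of summed UMIs, log axis) of 18 genes in naive-gene and helper-gene conventional CD4 T cells, 1 point per mouse and class, joined by mouse. *Dapl1*, *Satb1* and *Il7r* are lower and *Ifng*, *Ccl5* and *Cd40lg* higher in the helper-gene cells of each of the 3 mice.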

How the data were processed

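The deposited matrices hold raw UMI counts of 27998 genes per barcode, made by the authors from 10x Genomics 3′ libraries of kidney cells, with no normalization. The submitters' processing notes name Cell Ranger 3.1.0, STAR, Seurat 4.2.0 and mm10, whereas the matrix headers name Cell Ranger 6.1.2. No doublet caller was run, and limits on UMIs of other cells were set instead. Counts were summed over cells and given as CPM with exact Poisson intervals, and shares with Clopper-Pearson 95% intervals (scipy 1.17.1). Within mice, summed counts were tested with edgeR 4.0.16 (quasi-likelihood, TMM, filterByExpr, Benjamini-Hochberg), after it had been tested on simulated data. The mouse was a block because both cell sets of a pair came from 1 animal. DESeq2 1.42.0, other limits on cells and leaving out each mouse were alternatives. Positions come from GENCODE M21. The genes named were those of 24 lists (255 genes, 6 absent from the files), with the 10 largest rises and falls of each comparison among called genes, reaching 50 CPM and the same direction in all 3 mice for tests. A naive gene that the classes use and a Th17 gene are not reported here. The cells and lists were chosen with earlier results of these data known.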

Additional observations from a re-analysis of the deposited data

How the results depend on the processing

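The difference in the share of kept cells between *Aoah-/-* and WT (-0.0847 percentage points) was -0.179 with 0 UMIs of other cells, 0.105 in cells of at least 3000 UMIs, and -4.36 as a share of T cells. The naive-gene difference was 4.86 points with at most 20% mitochondrial UMIs, 5.64 with 0 UMIs of other cells, 9.64 at 3000 UMIs, 5.20 with 2 *Cd3* UMIs, 5.55 in another draw, 4.11 when thinned to 1000 UMIs and 4.99 without thinning. Genes called higher and lower against WT numbered 117 and 133 with 0 UMIs of other cells, 58 and 131 at 3000 UMIs, 93 and 115 with mitochondrial and ribosomal genes out of the total, 128 and 157 from 20 CPM, 11 and 29 from 100 CPM, and 445 and 384 without cells with an erythroid UMI, which left 25 WT cells. Those called higher numbered 115 in thinned cells, 79 without cells with *Il2ra* or *Ikzf2*, and 59 with a pseudocount of 1. Those called lower numbered 36 by the mean of per-cell levels and 26 without the top cell of each gene. Leaving out an *Aoah-/-* replicate gave 108 to 145 higher and 108 to 197 lower. Of 30 named genes against WT, 1 (*Gm8730*) kept its call in all alternatives and 10 turned. The other 19 lost the call in at least 1 without turning, some at a log2 ratio of 0. A call also ended where a gene fell under the entry level. From 100 CPM, 13 of the 30 lost theirs in this way with unchanged ratios. A pseudocount of 1 and an entry level of 20 CPM could not end a call. With 0 UMIs of other cells the log2 ratio was 0.23 for *Igfbp4*, 0.25 for *Col3a1*, -0.66 for *Penk*, 1.64 for *Clu* and 0.48 for *Slpi*. Without cells with 7 genes of other cells it was 0.46 for *Igfbp4*, 0.0984 for *Rarres2* and 0.45 for *Slpi*. Without erythroid UMIs it was 1.11 for *Tmem176a*, 0.15 for *Tmem176b*, 0.62 for *C3*, 0.15 for *Rarres2* and 0.94 for *Ccl1*. *Slpi* was at 0.49 without *Il2ra* or *Ikzf2* cells and 0.15 without its top cell. The cause was not tested.

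Against CD8 T cells, 136 and 96 genes were higher and lower with 0 UMIs of other cells, 161 were higher at 3000 UMIs, 131 and 110 were called by DESeq2, 356 were lower without a filter, and 125 and 93 passed at 0.01. Leaving out a mouse gave 98 to 200 higher and 76 to 158 lower. Against Foxp3 T cells, 25 and 32 were called at 3000 UMIs, 226 and 173 without a filter, and 13 and 26 at 0.01, and 133 were lower with at most 20% mitochondrial UMIs and 53 in DESeq2. Leaving out a mouse gave 0 to 104 and 0 to 109. Between helper-gene and naive-gene cells, 51 were higher in DESeq2, 228 and 89 were called without a filter, 66 were higher at 0.01, and 76 and 50 were lower with 0 UMIs of other cells and at 3000 UMIs. Leaving out a mouse gave 83 to 146 and 83 to 165. Of the genes named, 46 of 80, 0 of 50 and 43 of 69 kept their calls in each alternative that gave them a value, and the others lost theirs in at least 1 without turning. Without the mouse as a replicate block the counts were 242 and 179, 93 and 114, and 125 and 156. Between the genotypes no paired analysis was possible, because 1 WT library faces the *Aoah-/-* libraries. The naive-gene cells of the WT mouse held 26816 UMIs, which limits what low genes can show there. The settings without erythroid UMIs, without 7 genes of other cells and without top cells were chosen after the data were seen.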
